A study of Mus musculus with 6 samples.

Results

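Antigen presentation was followed through 33 genes, 10 of the MHC class II pathway, 19 of the class I pathway and 4 for costimulation, taken by gene symbol out of 24940 genes in the deposited expression table. All 33 were found in it. The data came from 6 RNA-seq libraries of osteoclast precursors (OCPs), and each condition had 2 libraries. Mouse marrow cells were first kept for 16 h with 5 ng/mL of M-CSF. OCPs are the adherent bone marrow-derived macrophages (BMMs) that these cells gave after 3 days with M-CSF, at 30 ng/mL per the paper. All 3 conditions then had a further 3 days with 30 ng/mL of M-CSF. The -R cultures were given nothing else, the +R cultures also received RANKL, the cytokine that turns precursors into osteoclasts, at 100 ng/mL, and the R+LE cultures received RANKL at the same dose with 10 μg/mL of LE, an extract of Abeliophyllum distichum leaves. No culture received LE without RANKL, so the action of LE could be read only in the presence of RANKL. Per the labels the marrow came from C57BL/6 mice of 6 to 8 weeks, whereas the paper's methods name male ICR mice, and MHC genes differ between strains in sequence. What this does to the alignment to mm10, a C57BL/6 genome, was not tested. The sources do not say whether the 2 libraries of a condition came from separate animals or cultures, so the p-values measure the spread between libraries, which may be technical.

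MHC class I molecules, built from a heavy chain and β2-microglobulin, display peptides that the proteasome cuts in the cytosol and the TAP transporter carries into the endoplasmic reticulum. MHC class II molecules, pairs of an α and a β chain, are escorted by the invariant chain to endosomes, where cathepsins remove the escort, H2-DM exchanges the remaining fragment for a peptide, and CD4 T cells can then be engaged. CD40, CD80 and CD86 provide the second signal that a T cell needs, and PD-L1, the product of Cd274, restrains it. Macrophages express class I genes constantly and class II genes mainly under the control of the transactivator CIITA, which is recruited by factors bound to the X and Y boxes of class II promoters. NLRC5 has the matching role at class I promoters.

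Promoters are shown first, since class I and class II genes share these boxes. Promoter sequences came from RefSeq (GRCm38.p6), in windows of 300 bases that reach from 250 bases before the start to 50 after it, and 26 of the 33 members were matched. Missing from that table were Cd40, Cd74, Cd86, Nlrc5, Tap2, Ciita and H2-Ab1. The Y box, searched as CCAAT on both strands, was present in 18 of the 26 windows, 14 of 17 of class I, 4 of 7 of class II and 0 of 2 for costimulation, and in 37.4% of all 32851 promoters of the table. The core of the X2 box, TGACG on either strand, was present in 12 of the 26 and in 20.8% of all promoters. By class it was in 10 of 17 of class I, 2 of 7 of class II (H2-Aa and Ifi30) and 0 of 2 for costimulation. An interferon-stimulated response element, which is GAAA, any NN and GAAA on either strand, was present in 5 of the 26 and in 3.4% of all, and a gamma-activated site, TTCNNNGAA, in 3 of the 26 and in 8.3% of all. The longer form CTGATTGG, which overlaps the Y box and was added after the sequences were seen, was present in 9 of the 26 and in 4.1% of all. Some of these genes are copies of each other, so their matches are not independent. The 130 bases before the annotated start are printed 5′ to 3′ in the direction of the gene for 3 class II genes that were lower both with RANKL and with LE at an adjusted p under 0.05, and for 2 class I genes that were so with RANKL and did not pass with LE, with matches to the Y box or the X2 core in capitals. The windows are H2-Aa at chr17:34287824-34287953 on the minus strand, H2-Eb1 at chr17:34305737-34305866, H2-DMb1 at chr17:34153061-34153190, H2-D1 at chr17:35262964-35263093 and B2m at chr2:122147557-122147686 on the plus strand. The RefSeq start of H2-Aa lies 52 bases from the start in the expression table.
H2-Aa: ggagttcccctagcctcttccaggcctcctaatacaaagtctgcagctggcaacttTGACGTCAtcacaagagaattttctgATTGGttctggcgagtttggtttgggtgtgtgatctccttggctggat
H2-Eb1: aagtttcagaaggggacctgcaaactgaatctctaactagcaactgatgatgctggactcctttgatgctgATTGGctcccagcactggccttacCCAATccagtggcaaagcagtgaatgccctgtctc
H2-DMb1: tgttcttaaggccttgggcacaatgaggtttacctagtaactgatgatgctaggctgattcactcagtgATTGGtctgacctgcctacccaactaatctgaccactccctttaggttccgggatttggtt
H2-D1: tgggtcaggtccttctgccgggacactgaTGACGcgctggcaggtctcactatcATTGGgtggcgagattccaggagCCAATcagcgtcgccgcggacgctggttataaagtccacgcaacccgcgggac
B2m: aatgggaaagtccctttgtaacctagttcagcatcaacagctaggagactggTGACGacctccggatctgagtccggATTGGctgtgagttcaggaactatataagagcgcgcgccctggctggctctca
The H2-Aa and B2m windows carry an X2 core upstream of a single Y box, H2-D1 has an X2 core upstream of a pair of Y boxes, and H2-Eb1 and H2-DMb1 have Y boxes without that exact core. These are matches of letters and not measured binding sites.

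Values are reads per kilobase of transcript, scaled to the mapped reads of the library (RPKM). Mapped reads numbered 29390205 to 34846366 in each library, as recovered from the steps between low values, and 74.2% to 80.7% of them on genes. For a 1 kb transcript, 3 reads amount to 0.0861 to 0.102 RPKM. The Rn45s entry for ribosomal RNA took 4.97% to 6.83% of the gene reads in -R and 10.9% to 13.5% in the libraries with RANKL. A gene was tested where its mean over the 6 libraries was at least 0.5 RPKM, which kept 11595 genes and 32 of the 33 members. Only Ciita was below this limit. Log2 fold changes are differences of log2(RPKM + 0.5), which are smaller than the true change where values are low. Calls required an adjusted p (limma, Benjamini-Hochberg over all 11595 genes) under 0.05 together with a change of at least 2-fold on this scale, which is also what the words short of or past 2-fold refer to. Fold differences given as such are ratios of mean RPKM. The comparisons of +R with -R and of R+LE with +R share the +R libraries.

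Class II chains and the invariant chain fell with RANKL and fell again when LE was added to it. The class I heavy chains among the members were lower with RANKL, and no class I member was called with LE. Between +R and -R, 13 of the 32 tested members were called lower and 1, Ifi30, was called higher, against 8.92% of all tested genes called lower and 6.58% called higher. Between R+LE and +R, 4 members were called lower and 0 higher, against 1.78% and 1.46% of all tested genes. These 4 were the class II genes H2-Aa, H2-Ab1, H2-Eb1 and Cd74. Between R+LE and -R, 17 members were called lower and 0 higher, against 6.36% and 3.92% of all genes. At an adjusted p under 0.05 whatever the fold, 21 members were lower and 3 higher with RANKL, where 21.5% and 23.9% of all genes were, and 25 lower and 1 higher in R+LE against -R, where 19% and 15.3% were. With LE 11 were lower and 0 higher, where 6.86% and 5.19% were. The 2 libraries of +R lay below both of -R in 24 members and above both in 3, against 35% and 40.3% of all tested genes. With LE the R+LE libraries lay below both +R libraries in 19 members and above both in 2, against 29.5% and 19.5% of all genes, and against -R they lay below in 27 and above in 3, against 34.3% and 31.2%.

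By class, the median log2 fold change from -R to +R was -1.55 over 9 class II genes, -0.86 over 19 class I genes and -0.10 over 4 costimulation genes, beside 0.05 over all tested genes. From +R to R+LE the medians were -0.84, -0.14 and -0.19, beside -0.05 over all genes. Class II had 6 genes called lower and 1 called higher in the first comparison and 4 called lower in the second, class I had 7 and 0 called lower, and costimulation had 0 in both. The 33 genes were measured in bulk RNA, in which fewer cells of a type and less RNA per cell cannot be told apart.

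**Figure D1:**
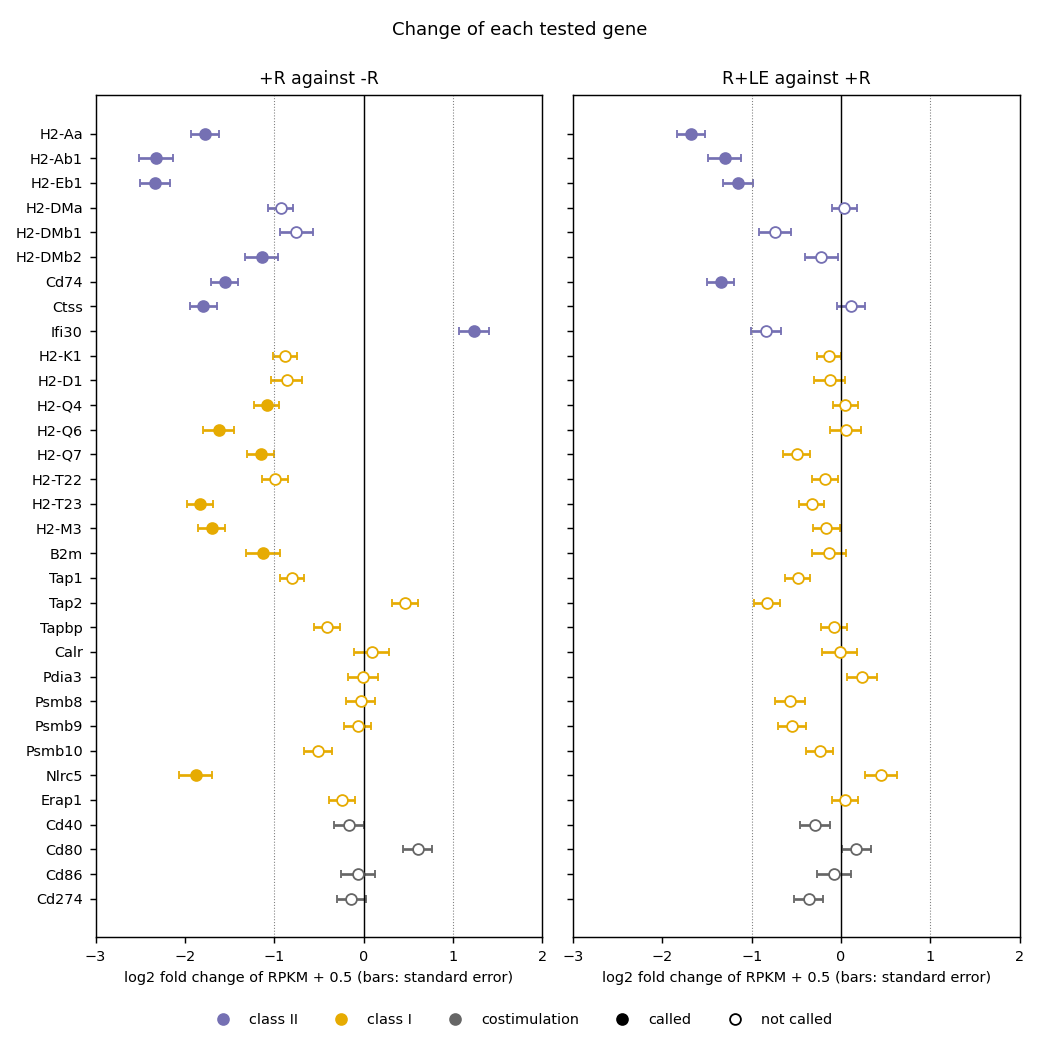
Log2 fold change of RPKM + 0.5 for each of the 32 tested genes, for +R against -R (left) and R+LE against +R (right); bars are standard errors, filled points are called genes and dotted lines mark a 2-fold change. On the right the only filled points are the class II genes H2-Aa, H2-Ab1, H2-Eb1 and Cd74.

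The peptide-binding chains were H2-Aa, the α chain of I-A, H2-Ab1, its β chain, and H2-Eb1, the β chain of I-E. H2-Aa (chr17:34282751-34287771, mm10, minus strand) measured 16.1 and 16.1 RPKM in -R, 4.05 and 4.69 RPKM in +R, and 1.22 and 0.835 RPKM in R+LE. The 3 conditions did not overlap, and the level stepped down at each. The fall was 3.69-fold with RANKL (log2 fold change -1.77, SE 0.16, adjusted p = 2.63e-07) and 4.25-fold with LE (-1.68, SE 0.16, adjusted p = 5.07e-06). Its partner H2-Ab1 (chr17:34263227-34269418, plus strand) measured 12.3 and 11.1 RPKM in -R, 2.45 and 1.51 RPKM in +R, and 0.561 and 0.416 RPKM in R+LE, again without overlap. The fall was 5.91-fold with RANKL (log2 fold change -2.32, adjusted p = 9.49e-08) and 4.05-fold with LE on top of RANKL (-1.30, adjusted p = 0.000284). These last values rest on 21 and 15 reads in the R+LE libraries, and the call with LE was lost with a pseudocount of 1 (-0.98) and with no filter on low values (adjusted p = 0.0504). H2-Eb1 (chr17:34305867-34316674, plus strand) measured 19.6 and 20.7 RPKM in -R, 3.26 and 3.92 RPKM in +R, and 1.66 and 1.05 RPKM in R+LE, and the groups stood apart. It fell 5.61-fold with RANKL (log2 fold change -2.34, adjusted p = 2.71e-08) and 2.65-fold with LE (-1.16, adjusted p = 0.000301), and the latter was no longer past 2-fold with a pseudocount of 1 (-0.97) or without R+LE replicate 2 (-0.92). The α chain of I-E, H2-Ea-ps, which is not functional in C57BL/6 mice, had 1 read in 1 of the 6 libraries and 0 in the others.

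Summed over these 3 chains, the level was 47.96 and 47.89 RPKM in -R, 9.75 and 10.1 RPKM in +R, and 3.44 and 2.30 RPKM in R+LE. The mean of the sum was 4.82-fold lower with RANKL, a further 3.46-fold lower with LE, and 16.7-fold below -R with both. An exact two-sided permutation test gave p = 0.333 for each, the smallest value that 2 libraries against 2 allow, so the calls rest on the spread that limma shares between genes.

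Cd74 encodes the invariant chain. It was the most abundant of the class II genes called with LE, at 91.4 and 90.2 RPKM in -R, 30.2 and 31.0 RPKM in +R, and 13.5 and 10.2 RPKM in R+LE. The replicates lay close together in -R and +R and further apart in R+LE, and no library of a condition reached the range of another. The fall was 2.97-fold with RANKL (log2 fold change -1.55, SE 0.15, adjusted p = 7.75e-07) and 2.59-fold with LE (-1.35, SE 0.15, adjusted p = 2.70e-05).

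Ciita, the transactivator of these genes, was low in every library, at 0.536 and 0.418 RPKM in -R, 0.348 and 0.399 RPKM in +R, and 0.037 and 0.070 RPKM in R+LE, from 81 and 75, 55 and 63, and 6 and 11 reads. Both R+LE libraries lay below all others, whereas the +R libraries lay just below those of -R. The mean in R+LE was 6.98-fold below +R, and that in +R was 1.28-fold below -R. As Ciita was below the limit for testing, it was tested by limma's voom on the recovered reads of 13271 genes with at least 10 reads in at least 2 libraries, a choice made after its values were seen. That gave a log2 fold change of -0.33 (SE 0.33, adjusted p = 0.428) with RANKL and of -2.80 (SE 0.57, adjusted p = 3.19e-05) with LE. With no filter on low values the test on log2(RPKM + 0.5) gave -0.16 (adjusted p = 0.281) and -0.66 (adjusted p = 0.0294). The transcript shares 111 bp of exon with Dexi on the opposite strand, which the counting did not separate, and Dexi itself measured 3.08 to 4.62 RPKM with log2 fold changes of -0.46 with RANKL and 0.32 with LE.

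**Figure D2:**
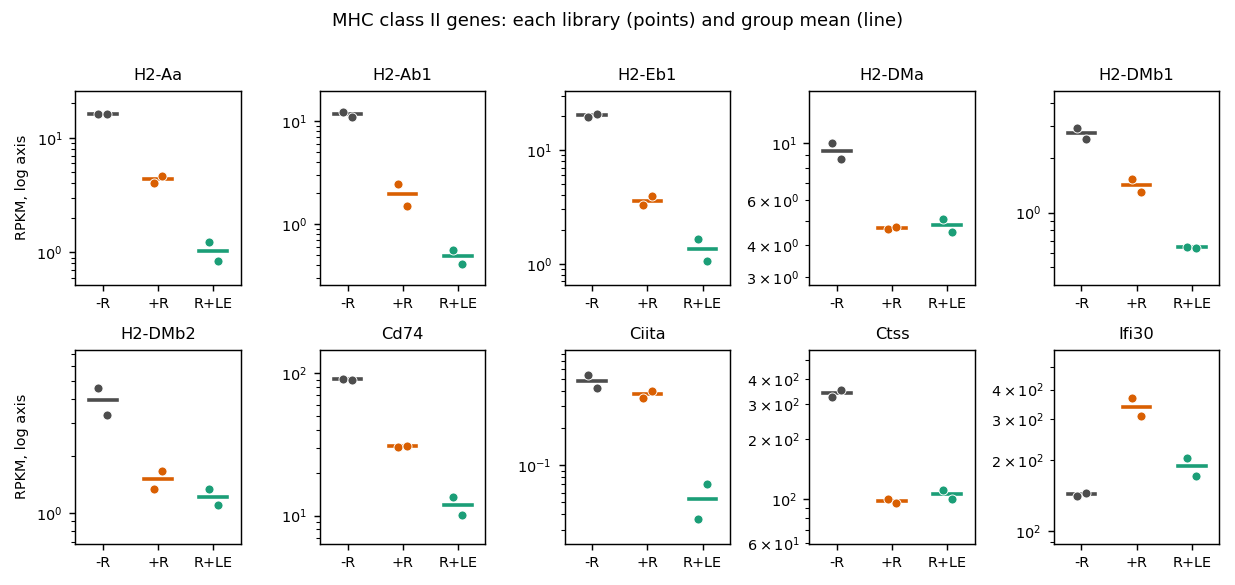
RPKM of the 10 class II genes on a log axis in each panel, with 1 point per library and a line at the mean of each condition (-R, +R, R+LE). H2-Aa, H2-Ab1, H2-Eb1, Cd74 and H2-DMb1 step down at both changes of condition, Ciita is lowest in R+LE, and Ctss and H2-DMa have means in +R and R+LE that lie close together.

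Of the 3 peptide editors, which form the H2-DM complex, 1 was called lower with RANKL and 0 with LE. H2-DMb2, a β chain, measured 4.59 and 3.32 RPKM in -R, 1.34 and 1.67 RPKM in +R, and 1.34 and 1.10 RPKM in R+LE, so that the 2 conditions with RANKL overlapped. It was called lower with RANKL (log2 fold change -1.14, adjusted p = 0.000151) and had -0.22 with LE (adjusted p = 0.567), and the call with RANKL was lost without -R replicate 1 (-0.93) and with a pseudocount of 1 (-0.97). H2-DMb1, the other β chain, measured 2.91 and 2.54 RPKM in -R, 1.53 and 1.30 RPKM in +R, and 0.645 and 0.643 RPKM in R+LE, with no overlap. It passed the adjusted p at each step but was short of 2-fold on the log2(RPKM + 0.5) scale, with log2 fold changes of -0.75 (adjusted p = 0.00322) and -0.74 (adjusted p = 0.0128), and was called between R+LE and -R (-1.49). With a pseudocount of 0.1 (-1.02) or with voom (-1.12) it was called lower with LE too. Of all 100-base stretches of H2-DMb1, 13.7% also occur in H2-DMb2, so reads could have been exchanged between them. H2-DMa, the α chain, was lower with RANKL (log2 fold change -0.93, adjusted p = 7.44e-05), past 2-fold only without -R replicate 2 (-1.03), and its log2 fold change with LE was 0.03.

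The endosomal enzymes moved in opposite directions. Ctss, the cathepsin that trims the invariant chain, measured 328 and 352 RPKM in -R, 99.8 and 95.6 RPKM in +R, and 111 and 100 RPKM in R+LE, and fell with RANKL (log2 fold change -1.79, adjusted p = 1.67e-07) with no call for LE (0.11, adjusted p = 0.755). Ifi30, a thiol reductase that opens disulfide bonds of antigens in endosomes, was the exception of the class, with 142 and 145 RPKM in -R, 369 and 309 RPKM in +R, and 205 and 172 RPKM in R+LE. It rose 2.36-fold with RANKL (log2 fold change 1.23, adjusted p = 2.44e-05), and its level in R+LE lay between the other conditions, lower than in +R at less than 2-fold (-0.84, adjusted p = 0.00342).

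Markers of other cells were read beside these genes, because B cells and dendritic cells also carry class II. Of 6 B cell markers, 5 were in the table, and they held 75 to 82 reads in the -R libraries, 4 in each +R library and 2 to 5 in R+LE. None had a mean of 0.5 RPKM over the 6 libraries, though within -R Cd79b had a mean of 0.915 and Cd79a of 0.5555 RPKM. The summed level of 9 dendritic cell markers was 4.67 to 5.96 RPKM in -R, 5.83 to 8.07 in +R and 3.51 to 3.97 in R+LE. Only Itgax among them had a mean of 0.5 RPKM or more over the 6 libraries, though Siglech (0.907) and Batf3 (0.5045) did within -R. Itgax, the most abundant of the 9, had log2 fold changes of 1.02 with RANKL and -0.69 with LE. Siglech, a plasmacytoid marker, went from 51 and 93 reads in -R to 2 reads in each +R library and to 1 and 0 reads with LE. Reads also fell from -R to +R in Flt3 (30 and 26 to 0 and 2), Ccr7 (13 and 40 to 4 and 8) and Batf3 (10 and 13 to 0 and 4). They fell in Xcr1 (37 and 34 to 6 and 26) and Cd209a (15 and 22 to 2 and 0). Reads rose in Zbtb46 (5 and 6 to 44 and 58) and Clec9a (12 and 15 to 17 and 25). Monocyte markers (3 genes) summed to 127 to 144 RPKM in -R, 9.47 to 9.81 in +R and 6.08 to 7.31 in R+LE, and 6 neutrophil markers to 15.3 to 17.0, 0.66 to 0.816 and 0.564 to 2.53. With RANKL present the monocyte sum was nearly all Ccr2 (means 9.38 and 5.78 RPKM in +R and R+LE), while Plac8 was higher with LE at less than 2-fold on the log2 scale (0.142 and 0.677 RPKM, log2 fold change 0.87, adjusted p = 0.001996) and Ly6c2 had means of 0.1195 and 0.2355 RPKM (0.24, adjusted p = 0.466). The part of these cells in the fall from -R to +R was not tested. Between +R and R+LE, B cell markers were near 0 in both conditions, and the dendritic cell sum was lower in R+LE. Most of that sum was Itgax (means 5.53 and 3.14 RPKM in +R and R+LE). Reads fell with LE in Zbtb46 (44 and 58 to 5 and 13) and Ccr7 (4 and 8 to 0 and 0). Those of Clec9a (17 and 25 to 22 and 26) and Xcr1 (6 and 26 to 22 and 12) overlapped. Flt3, Batf3 and Cd209a had at most 4 reads in each of these libraries. The part of these changes in the fall of class II with LE was not tested.

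The labelled cell types were checked in the same way. The 8 macrophage markers, led by Lyz2, were all expressed and summed to 6732 to 7319 RPKM in -R, 2692 to 3455 in +R and 3764 to 4206 in R+LE. The 10 osteoclast markers, led by Acp5, summed to 43.37 to 45 RPKM in -R, 1951 to 2222 in +R and 346 to 402 in R+LE. Most of the macrophage sum was Lyz2, with means of 5317, 2132 and 3060 RPKM in the order -R, +R and R+LE. Cd68 (771, 445 and 336.5) and Csf1r (338, 206 and 185) had their lowest means in R+LE. Neither passed the limma test with LE (adjusted p = 0.193 and 0.664). Adgre1 (184, 102 and 148), Cd14 (260, 94.6 and 146), Mertk (16.4, 2.29 and 3.48) and Fcgr1 (68.8, 1.64 and 1.85) were lowest in +R, as Lyz2 was. Itgam (70.5, 90.2 and 104) was highest in R+LE. The part of these shifts in the class II values was not tested. T and NK cell markers stayed at 0.152 to 0.367 RPKM in sum in all libraries, with Cd3e at 0 in each. Stromal markers (5 genes) summed to 13.7 to 15.4, 9.47 to 13.5 and 7.50 to 8.39 RPKM in the order -R, +R and R+LE. In that order 3 endothelial markers summed to 2.29 to 2.38, 1.99 to 2.09 and 0.65 to 0.717 RPKM, but they did not move together. Reads of Pecam1 (42 and 44 to 2 and 2) and Cdh5 (70 and 95 to 17 and 7) fell from -R to +R. With LE, Pecam1 had 0 reads in both libraries and Cdh5 had 24 and 9. Kdr had log2 fold changes of 0.45 with RANKL (adjusted p = 0.0636) and -1.20 with LE (adjusted p = 0.000473).

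The classical heavy chains and the light chain of class I were more abundant than the class II chains in every library and were lower with RANKL. Of the classical chains, H2-D1 (chr17:35263094-35267497, plus strand) measured 756 and 759 RPKM in -R, 423 and 412 RPKM in +R, and 393 and 370 RPKM in R+LE. It was 1.82-fold lower in +R (log2 fold change -0.86, adjusted p = 0.000798), which is short of 2-fold, and its change with LE was small beside its error (-0.13, SE 0.17, adjusted p = 0.746). With quantile normalization the fall with RANKL was past 2-fold (-1.13). H2-K1 (chr17:33996012-34000333, minus strand) measured 56.8 and 55.0 RPKM in -R, 30.0 and 30.5 RPKM in +R, and 27.5 and 27.3 RPKM in R+LE. It had a log2 fold change of -0.87 with RANKL (adjusted p = 7.91e-05), -0.14 with LE (adjusted p = 0.627), and -1.01 between R+LE and -R. That last call was lost with median centring (-0.96), with quantile normalization (-0.91), without Rn45s in the depth (-0.94) and without -R replicate 1 (-0.99). B2m, the light chain, had the highest mean of the members, at 1246 and 1321 RPKM in -R, 645 and 533 RPKM in +R, and 561 and 509 RPKM in R+LE. It fell 2.18-fold with RANKL (log2 fold change -1.13, adjusted p = 0.000175), which was short of a 2-fold call without +R replicate 2 (-0.99). The +R and R+LE libraries overlapped (-0.13, adjusted p = 0.766).

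The 6 non-classical heavy chains among the members, a kind that presents restricted sets of peptides or acts as ligands of innate receptors, had log2 fold changes of -1.83 to -0.99 with RANKL. All 6 passed the adjusted p in +R against -R, 5 of them past 2-fold, and 0 were called with LE. H2-T23 (Qa-1), a ligand of NKG2A, measured 175 and 161 RPKM in -R, 45.5 and 48.1 RPKM in +R, and 38.6 and 35.7 RPKM in R+LE, a 3.59-fold fall with RANKL (log2 fold change -1.83, SE 0.14, adjusted p = 6.08e-08). H2-M3, which presents formylated bacterial peptides, measured 20.03 and 19.4 RPKM in -R, 5.18 and 6.33 RPKM in +R, and 5.62 and 4.55 RPKM in R+LE (-1.70 with RANKL, adjusted p = 2.25e-07). In each of these, the +R and R+LE libraries were close, and those of H2-M3 overlapped.

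Of the remaining non-classical chains, H2-Q6, H2-Q7 and H2-T22 have other entries at the same loci, so their values are uncertain one by one. Stretches of 100 bases that also occur in other genes made up 19.3% of H2-Q6, 6.5% of H2-Q7 and 2.7% of H2-Q4. The share was 7.3% in H2-T23 and 4.6% in H2-D1, and it was not measured for H2-T22. H2-Q6 measured 17.4 and 18.2 RPKM in -R, 4.31 and 6.88 RPKM in +R, and 5.62 and 5.73 RPKM in R+LE (log2 fold change -1.62 with RANKL, adjusted p = 2.13e-06). H2-Q7 measured 26.3 and 21.1 RPKM in -R, 9.83 and 10.9 RPKM in +R, and 7.56 and 6.79 RPKM in R+LE. It had -1.15 with RANKL, a call lost by a small margin without -R replicate 1, and it was the only member among the heavy chains to pass the adjusted p with LE (-0.50, adjusted p = 0.0383). H2-Q4 measured 53.6 and 50.5 RPKM in -R, 24.3 and 24.4 RPKM in +R, and 23.2 and 27.1 RPKM in R+LE (-1.08 with RANKL, adjusted p = 1.47e-05). H2-T22 measured 54.9 and 49.0 RPKM in -R, 25.3 and 26.4 RPKM in +R, and 24.9 and 20.8 RPKM in R+LE (-0.99 with RANKL, adjusted p = 4.82e-05), just short of 2-fold, and it was called with a pseudocount of 0.1, with voom (-1.01) and without -R replicate 2 (-1.07) or +R replicate 2 (-1.02). In the table, H2-Q8, H2-Q9 and H2-T9 lie at the same loci as H2-Q6, H2-Q7 and H2-T22, and H2-L lies within the span of H2-D1. These entries had log2 fold changes with RANKL of -1.63, -1.13, -0.99 and -0.86, so they are not further evidence. Between R+LE and -R, H2-Q4 was called at -1.04, and lost with median centring (-0.98), quantile normalization (-0.91), Rn45s left out of the depth (-0.96), or without -R replicate 1 (-0.99) or R+LE replicate 1 (-0.93).

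**Figure D3:**
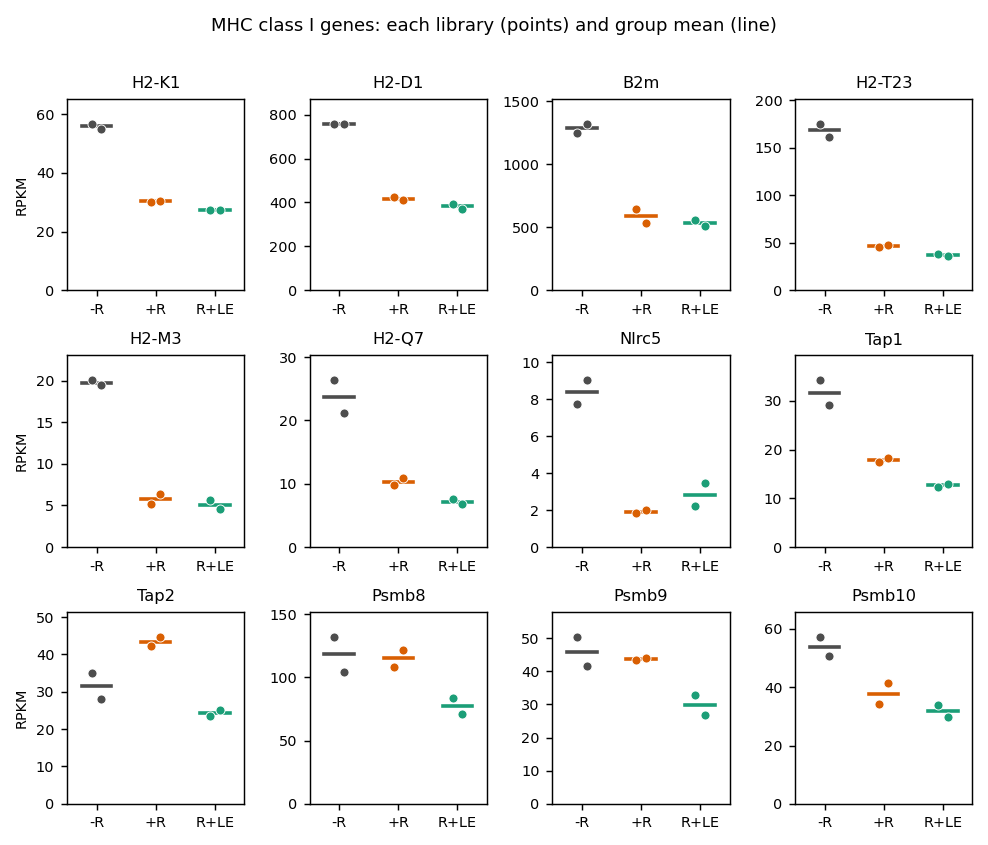
RPKM of 12 class I genes on linear axes that start at 0, with 1 point per library and a line at the mean of each condition. Heavy chains, B2m, Nlrc5, Tap1 and Psmb10 are lower in +R than in -R. H2-K1, H2-D1, H2-T23, H2-Q7, Tap1, Tap2, Psmb8, Psmb9 and Psmb10 are lower in R+LE and do not overlap with +R. Of these, only H2-Q7, Tap1, Tap2, Psmb8 and Psmb9 passed the adjusted p with LE.

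The genes of peptide supply did not share a single course. Tap1, a subunit of the TAP transporter, measured 34.2 and 29.1 RPKM in -R, 17.5 and 18.3 RPKM in +R, and 12.4 and 12.9 RPKM in R+LE, stepping down at both changes (log2 fold changes -0.80, adjusted p = 0.000233, and -0.49, adjusted p = 0.0325) and called between R+LE and -R (-1.29). Its partner Tap2 rose with RANKL at less than 2-fold (0.46, adjusted p = 0.0181) and was 1.79-fold lower with LE (-0.83, adjusted p = 0.00147), with 35.0 and 28.1 RPKM in -R, 42.2 and 44.6 RPKM in +R, and 23.5 and 25.0 RPKM in R+LE. Tap1 shares 212 bp of exon with Psmb9 on the opposite strand, and Tap2 shares 658 bp with unnamed gene models, which the counting did not separate. Tapbp (682 bp), Cd274 (511 bp), H2-Q4 (377 bp) and Psmb8 (186 bp) also share exon with such models on the opposite strand. Tapbp (tapasin), which bridges TAP and class I, was lower with RANKL at less than 2-fold (-0.41, adjusted p = 0.0336) and had -0.08 with LE. The chaperones Calr and Pdia3, which serve many other glycoproteins, had log2 fold changes between -0.02 and 0.23 in both comparisons, with adjusted p of 0.472 and above. Erap1, which trims peptides in the endoplasmic reticulum, had -0.24 and 0.04 (adjusted p = 0.186 and 0.917) and shares 834 bp of exon with Cast on the opposite strand.

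The inducible catalytic subunits of the immunoproteasome Psmb8 and Psmb9 did not pass the test with RANKL and were lower with LE at less than 2-fold. Psmb8 measured 105 to 132 RPKM in -R, 108 to 122 in +R and 70.9 to 83.5 in R+LE, with log2 fold changes of -0.03 (adjusted p = 0.890) and -0.57 (adjusted p = 0.0333). Psmb9 measured 41.5 to 50.3, 43.5 to 43.9 and 26.9 to 32.7 RPKM, with -0.06 (adjusted p = 0.754) and -0.55 (adjusted p = 0.0278). Psmb10 was lower with RANKL at less than 2-fold (-0.51, adjusted p = 0.0126), and its change with LE was -0.24 (adjusted p = 0.393). Each was also set against the constitutive subunit that it replaces. The ratio Psmb8/Psmb5 was 0.939 and 0.885 in -R cultures, 0.837 and 0.858 in +R cultures, and 0.575 and 0.631 in R+LE cultures, 28.8% lower in the mean with LE. Psmb9/Psmb6 was 0.390 and 0.335 in -R cultures, 0.374 and 0.328 in +R cultures, and 0.271 and 0.289 in R+LE cultures, 20.2% lower with LE. In contrast, Psmb10/Psmb7 was 0.400 and 0.372 in -R cultures, 0.176 and 0.204 in +R cultures, and 0.189 and 0.208 in R+LE cultures, so it dropped by 50.8% with RANKL and the conditions with RANKL overlapped. The exact permutation p was 0.333, the smallest possible, where groups stood apart and 0.667 for Psmb9/Psmb6 with RANKL and Psmb10/Psmb7 with LE.

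Nlrc5, the class I transactivator, measured 7.73 and 9.02 RPKM in -R, 1.81 and 2.003 RPKM in +R, and 2.20 and 3.48 RPKM in R+LE. It fell 4.39-fold with RANKL (log2 fold change -1.88, SE 0.18, adjusted p = 6.51e-07), and both R+LE libraries lay above both +R libraries, a difference that did not pass the test (0.44, SE 0.18, adjusted p = 0.145). Among the 19 class I genes, Nlrc5 had the lowest log2 fold change with RANKL and the highest with LE. Of the transactivators, Ciita was lowest in R+LE and Nlrc5 was lowest in +R.

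Costimulation genes were low and were not called in any comparison. Cd80, a ligand of CD28 and CTLA-4, measured 1.71 and 1.92 RPKM in -R, 3.39 and 2.69 RPKM in +R, and 3.35 and 3.57 RPKM in R+LE. It was higher with RANKL at less than 2-fold (log2 fold change 0.61, SE 0.16, adjusted p = 0.00641), and the 2 conditions with RANKL overlapped (0.17, adjusted p = 0.628). Cd274 measured 3.22 and 4.08 RPKM in -R, 2.98 and 3.54 RPKM in +R, and 2.32 and 2.52 RPKM in R+LE, with -0.14 (adjusted p = 0.515) and -0.36 (adjusted p = 0.193), and -0.50 between R+LE and -R (adjusted p = 0.0275). Cd86, the other CD28 ligand, stayed between 0.92 and 1.32 RPKM in all 6 libraries. Cd40, the receptor for CD40 ligand on T cells, measured 2.58 to 2.63 RPKM in -R, 2.05 to 2.52 in +R and 1.69 to 1.85 in R+LE. Its log2 fold changes were -0.16 with RANKL (adjusted p = 0.448) and -0.29 with LE (adjusted p = 0.330). Between R+LE and -R, Cd40 had -0.45 (adjusted p = 0.0461) and Cd80 had 0.78 (adjusted p = 0.00165), both short of 2-fold. These 4 genes had 71 to 516 reads per library, and the standard errors of their log2 fold changes were 0.16 to 0.19.

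**Figure D4:**
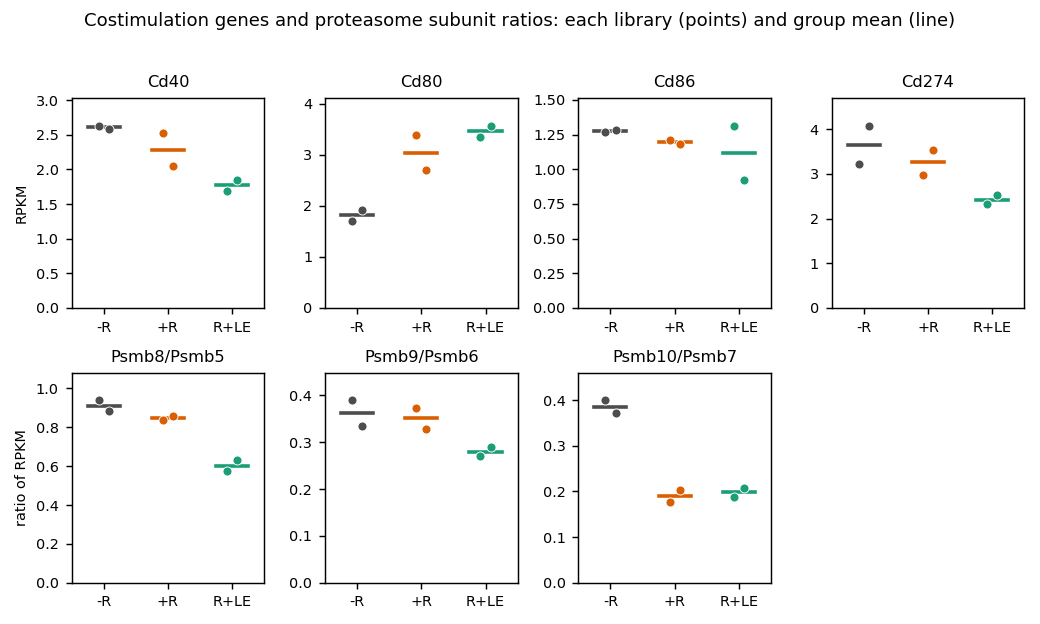
Top, RPKM of the 4 costimulation genes, and bottom, ratios of the RPKM of each immunoproteasome subunit to that of its constitutive counterpart, with 1 point per library and a line at the mean of each condition, on axes that start at 0. Cd80 is higher in both conditions with RANKL, Psmb8/Psmb5 is lowest in R+LE, and Psmb10/Psmb7 is low in both conditions with RANKL.

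Further genes of the pathway came from a list of 36, of which 27 were tested. With RANKL 11 were called lower and 1 higher, against 8.92% and 6.58% of all tested genes, and 2 of the 11 were H2-Q8 and H2-Q9, which lie at the loci of H2-Q6 and H2-Q7. With LE 1 was called lower and 1 higher, against 1.78% and 1.46% of all genes. The lysosomal proteases fell with RANKL, with log2 fold changes of -3.50 for Ctsl, -2.32 for Ctsb, -1.82 for Ctsd and -2.50 for the endopeptidase Lgmn. Ctsl, which degrades the invariant chain in thymic epithelium, was the gene of this list called higher with LE (1.39, adjusted p = 0.000236), at 1249 and 1317 RPKM in -R, 126 and 101 RPKM in +R, and 351 and 249 RPKM in R+LE. Marchf1, the ubiquitin ligase that removes class II and CD86 from the surface, had -2.29 with RANKL and 0.90 with LE (adjusted p = 0.00148), and so was lowest in +R. The class I-like molecules Cd1d1 and Mr1, which present lipids and vitamin B metabolites, fell with RANKL (-1.66 and -1.73), as did Icosl, the ligand of ICOS (-1.997). H2-M2, a class I-like gene, rose with RANKL and fell with LE, with 0.501 and 0.242 RPKM in -R, 2.65 and 2.06 RPKM in +R, and 0.311 and 0.300 RPKM in R+LE (1.72 with RANKL and -1.82 with LE). Its R+LE values rest on 14 and 13 reads.

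Among 23 regulators of these genes, 22 were tested. With RANKL those called lower included Irf8, a factor of macrophage identity (log2 fold change -3.70), and Stat2 (-2.24) and Irf9 (-1.27), which carry interferon signals. The same comparison had 2 called higher (6.58% of all tested genes were), namely Ifngr1, a chain of the interferon-γ receptor (1.19), and Prdm1, which encodes the repressor BLIMP1 (2.99). With LE only Prdm1 was called, at 0.995 and 1.25 RPKM in -R, 12.7 and 11.9 RPKM in +R, and 2.51 and 2.26 RPKM in R+LE (-2.16, adjusted p = 3.84e-07). Irf8 was higher with LE at less than 2-fold (0.61, adjusted p = 0.0128). Rfx5, a subunit of the X box factor, measured 1.92 to 2.01 RPKM in -R, 2.91 to 3.30 in +R and 2.72 to 3.13 in R+LE. It was higher with RANKL at less than 2-fold (0.55, adjusted p = 0.0105) and had -0.08 with LE (adjusted p = 0.852).

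Against -R, the largest falls among the tested members in R+LE were those of the class II chains and the invariant chain, at 15.7-fold for H2-Aa, 23.96-fold for H2-Ab1, 14.9-fold for H2-Eb1 and 7.67-fold for Cd74, with log2 fold changes of -3.45, -3.63, -3.49 and -2.90. The class medians were -1.68 for class II, -1.01 for class I and -0.30 for costimulation, beside -0.01 over all genes. Of 9 tested class II genes 7 were called lower, of 19 class I genes 10, and of 4 costimulation genes 0. Ifi30, at 0.39 (adjusted p = 0.0887), was the tested class II gene that did not pass the adjusted p.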

How the data were processed

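Libraries were grouped by the condition in the sample labels. The authors sequenced 100 bp paired ends and counted reads on exons with HOMER on mm10, with 1 transcript per gene and without regard to strand, and they deposited RPKM under titles that say FPKM. For the aligner, the paper's methods name TopHat and the submitters' processing notes HISAT2, without versions. Symbols turned into dates (26) were restored from transcript identifiers.

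RPKM were tested as log2(RPKM + 0.5) with limma version 3.58.1 in R version 4.3.3, with a variance trend, all 6 libraries in a single fit and Benjamini-Hochberg adjustment. The thresholds follow the paper's methods, which do not name a test. Whole reads were recovered from RPKM and length, and 100% of the values checked lay within 0.1 reads of a whole number. Replicates differed by more than counting noise (chi-square per gene 11.8 to 26.4). The fit was also run on simulated reads with the same set spread for all genes. That run does not show how the calls hold at the spread of these libraries. Limits on depth cover counting error only. Python version 3.11.15 with pandas 2.3.3, scipy 1.17.1 and matplotlib 3.10.9 handled tables, exact tests and figures.

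The members, gene lists and marker lists were chosen with earlier results of these data known. Values in each library are given for members called in any comparison and for the 2 most abundant of each class, and other members by ranges or short values. Motifs, the promoters shown and Ciita's separate test were chosen in the same knowledge. As alternatives, the pseudocount was set to 0.1 or 1, the minimum mean to none or 1 RPKM, the trend was dropped, each fit was limited to the groups compared, values were centred on the median, quantile-normalized or scaled without Rn45s, the replicate number entered as a block, recovered reads were tested by voom, and each library was left out in turn. The qRT-PCR, blots and animal experiments were not analysed here. Some results of the gene lists are not reported here.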

Additional observations from a re-analysis of the deposited data

How the results depend on the processing

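With a pseudocount of 1, 2 members were called lower with LE, against 4 in the reported fit. The class II median was -1.35 for +R against -R with no filter, which adds Ciita, was -1.12 for R+LE against +R with voom on recovered reads, and for R+LE against -R was -1.92 with a pseudocount of 0.1 and -2.05 with voom. Adding 0.5 to the summed chains gave log2 ratios of -1.39 and -3.50 for R+LE against +R and against -R. With each library left out, these ratios ranged from -2.11 to -1.53 and from -4.38 to -3.80, the class I median for R+LE against +R from -0.26 to -0.06, and Psmb8/Psmb5 from -0.56 to -0.42 and from -0.67 to -0.53. Members called ranged from 11 to 15 lower with RANKL and from 3 to 4 lower with LE. A change of sign was seen only in members that were not called in the comparison. With quantile normalization these were B2m (0.05) and Calr (0.11) with LE, Calr (-0.13), Pdia3 (0.00) and Psmb9 (0.01) with RANKL, and Calr in R+LE against -R (-0.02). With median centring they were Calr with LE (0.03) and Pdia3 with RANKL (0.00), and with Rn45s left out of the depth Pdia3 (0.06) and Psmb8 (0.03) with RANKL. With a library left out, the ranges that crossed or reached 0 for LE were -0.05 to 0.12 in H2-DMa, -0.06 to 0.15 in H2-Q4, -0.26 to 0.36 in H2-Q6, -0.27 to 0.00 in B2m, -0.26 to 0.23 in Calr, -0.05 to 0.14 in Erap1 and -0.26 to 0.10 in Cd86. For RANKL they were -0.20 to 0.19 in Pdia3, -0.20 to 0.13 in Psmb8, -0.20 to 0.07 in Psmb9 and -0.29 to 0.01 in Cd274, and for R+LE against -R they were -0.17 to 0.32 in Calr and -0.32 to 0.03 in Cd86. The cause of these shifts was not tested. The replicate numbers were not shown to pair the libraries (correlations of deviations -0.046, 0.107 and 0.249), and the fit with the replicate block called 13, 4 and 17 members lower, the same counts as without it. With 2 libraries per condition, and fewer than 30 reads in R+LE for H2-Ab1, H2-DMb1 and Ciita, depth limits how closely the fall of these genes is known.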
